A study of Mus musculus with 4 samples.

Results

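Flk-1-positive cells from Er71-/- mouse embryonic stem (ES) cells were set against the same population from an untreated inducible ER71 line, iER71, as a second reference for loss of ER71 beside wild type. The comparison uses 2 of the 4 arrays in the series, chosen by their labels: the array of genotype Er71-/-, and the iER71 array labelled, in its source name and its doxycycline field, as not treated, whose genotype is recorded as wild-type. All 4 populations were sorted for Flk-1 on day 3 of differentiation in serum, after growth of the ES cells on mouse embryonic fibroblasts, and each was measured on 1 Affymetrix array. The other 2 arrays, wild-type ES cells and iER71 cells given doxycycline (1 mg/ml, added on day 2 and kept until day 3), are shown beside them. The title of the untreated iER71 array calls it ER71 overexpressed, against its own source label, and the title of the doxycycline array calls it control; here both are called by their treatment label. Were the titles right instead, the reference used below would be the induced array and the array called doxycycline would be the uninduced one, so every statement on these 2 arrays rests on the treatment label. Etv2 and the summed intensity of endothelial genes were higher on the array labelled as treated (10.50 against 10.05 on the log2 scale, and 20972 against 8808). Some endothelial genes, such as Emcn and Esam, entered the sum only because they were bright on that array. The sum is therefore high there partly by the choice of genes. The sources used here give neither the number of clones behind each line, nor the part of Er71 that was deleted, nor the site and promoter of the inducible gene. Er71-deficient and untreated iER71 cells therefore differ in line as well as in Er71, and these cannot be told apart in this pair.

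ER71 is an ETS-family transcription factor encoded by Etv2. ETS factors bind DNA around a GGAA core and, in the embryo, act in genes of blood and endothelium. ER71 is expressed briefly in mesoderm that carries Flk-1 (gene Kdr), the VEGF receptor found on the progenitors of vessels and blood, and mouse embryos without it form neither. Flk-1-positive mesoderm also gives rise to heart and smooth muscle.

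The values are linear intensities, already normalized by the authors, and are given here on the log2 scale, so that a difference of 1 is 2-fold. Of 14860 genes with a probe set of their own, 8843 were detected, meaning that the brightest of the 4 arrays reached the median of all values (log2 6.16). With 1 array in each group there is no spread between replicates, hence no error, test or p-value for any gene, and genes are called by size alone, at 2-fold. In bulk RNA such as this, fewer cells of a type and less RNA per cell cannot be told apart.

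For 3 genes of the comparison the DNA before the start of transcription is shown, because their level was lower without Er71: Tek, which encodes the angiopoietin receptor of endothelium, Calcrl, which encodes the receptor that binds adrenomedullin together with Ramp2, and Etv2 itself. The sequences are the 250 bases before the start in RefSeq (GRCm38.p6), 5′ to 3′ on the strand of the gene. Capitals mark the letters GGAA or, for the other strand, TTCC.
Tek (chr4:94739039-94739288, plus strand): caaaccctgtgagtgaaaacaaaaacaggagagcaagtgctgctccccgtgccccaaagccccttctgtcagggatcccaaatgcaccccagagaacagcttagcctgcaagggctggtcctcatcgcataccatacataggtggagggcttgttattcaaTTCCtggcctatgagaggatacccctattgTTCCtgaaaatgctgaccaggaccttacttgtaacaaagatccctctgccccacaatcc
Calcrl (chr2:84425267-84425516, minus strand): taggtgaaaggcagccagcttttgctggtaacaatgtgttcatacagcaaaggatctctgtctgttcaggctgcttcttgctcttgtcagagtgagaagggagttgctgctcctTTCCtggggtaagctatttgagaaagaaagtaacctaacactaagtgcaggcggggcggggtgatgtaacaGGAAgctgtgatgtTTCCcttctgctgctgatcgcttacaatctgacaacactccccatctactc
Etv2 (chr7:30635853-30636102, minus strand): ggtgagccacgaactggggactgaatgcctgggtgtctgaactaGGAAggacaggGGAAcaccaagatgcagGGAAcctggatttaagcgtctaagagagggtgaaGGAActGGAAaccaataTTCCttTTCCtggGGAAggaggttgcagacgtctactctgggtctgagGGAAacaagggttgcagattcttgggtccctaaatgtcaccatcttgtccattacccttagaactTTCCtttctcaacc
These windows held 2, 3 and 10 such cores. A core as short as this says little, since 93.4% of all 32851 RefSeq windows of this length held at least 1 on either strand. The longer letters ACAGGAA, which contain the core, were found once, in the Calcrl window, and in 7.20% of all windows. Of the 102 windows that could be matched to 74 of the genes 2-fold lower on the Er71-deficient array, 9.80% held ACAGGAA, 1.96% held CCGGAAG (another sequence that contains the core) and 10.8% held the GATA letters AGATAA. Over the 9249 windows of detected genes the shares were 5.76%, 13.3% and 5.63%. Over all windows they were 7.20%, 6.91% and 9.99%, and over the 45 windows of genes 2-fold higher 4.44%, 13.3% and 8.89%. The AGATAA share of the lower genes was thus near that of all windows but above that of detected genes. Their ACAGGAA share was above both, and their CCGGAAG share below both. These differences were not tested. A match describes the letters in a window and not a bound site.

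Etv2 had a log2 intensity of 8.89 on the Er71-deficient array, 10.05 on the untreated iER71 array, 9.39 in wild type and 10.50 with doxycycline. It was thus 2.23-fold lower on the Er71-deficient array than on the untreated one, and lowest there of the 4 arrays, but still far above the detection level. Whether its probes lie in the deleted part is not known here, so this level checks the label only weakly. Kdr, the gene for the sorted marker, was 9.67 on the Er71-deficient array and 9.96 on the untreated iER71 array, so both populations carried it at similar brightness.

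Most genes lay close together on both arrays: for 93.2% of the 8843 the difference was under 0.5 on the log2 scale, and for 1764 it was exactly 0. By the 2-fold rule 105 genes (1.19%) were lower without Er71 than on the untreated iER71 array, and 43 (0.486%) were higher. At 4-fold the counts were 24 lower (0.271%) and 3 higher (0.0339%). Among genes with a symbol the imbalance was therefore towards lower values without Er71, and it was steeper at 4-fold. Over all probe sets, named or not, it was the other way, with 317 higher and 148 lower at 2-fold. Of the 105, 57 lay under the detection level on the Er71-deficient array, where a fold is uncertain, and of the 43, 16 did on the untreated array. At the edge of the call, Rnf125 (-1.01) and Slc16a13 (-1.01) were just inside and Frg1 (-0.999) and Egln3 (-0.99) just outside on the lower side; Elob (1.01) and Crabp2 (1.02) were just inside and Tceal5 (0.99) just outside on the higher side.

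**Figure D1:**
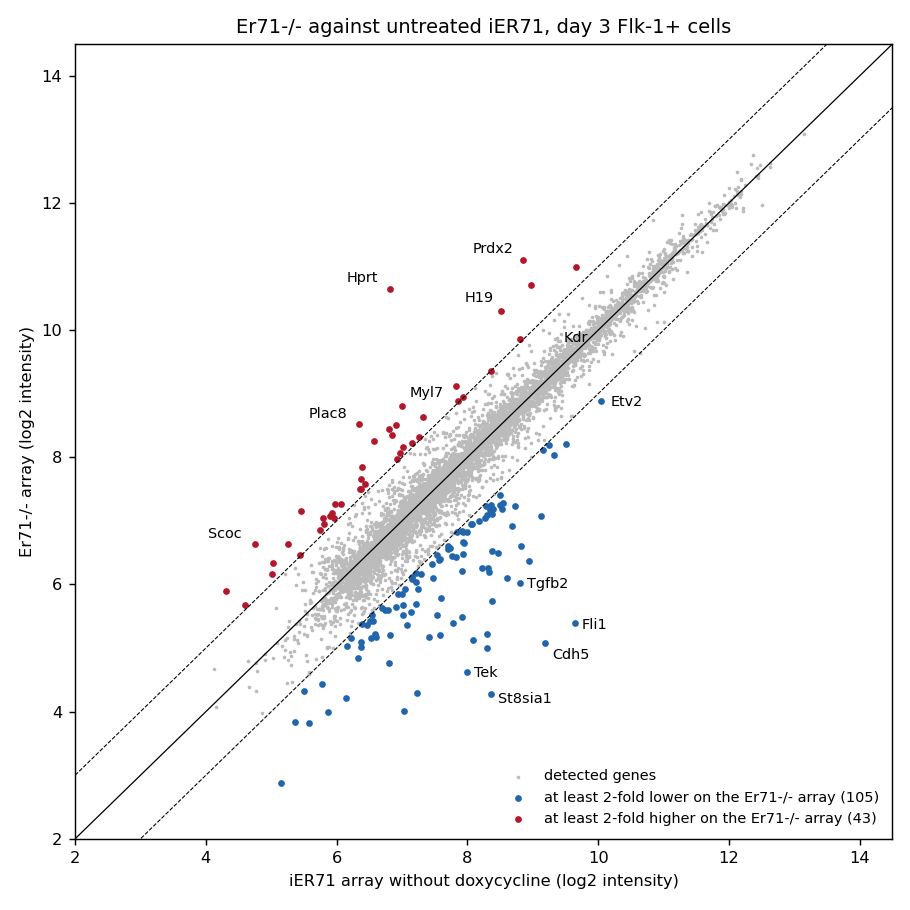
Log2 intensity of each of 8843 detected genes on the untreated iER71 array (x) and on the Er71-deficient array (y), with dashed lines at 2-fold. The 105 lower genes reach farther from the diagonal than the 43 higher ones, and Hprt is the farthest on the higher side.

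Endothelial genes were the largest group on the lower side. Of 41 detected members of the endothelial list, 14 were at least 2-fold lower on the Er71-deficient array than on the untreated iER71 array and none was higher by that size, against 1.19% lower among all detected genes. The median over the list was -0.78 (log2), and over all detected genes it was 0. In 40 of the 41 (97.6%) the Er71-deficient array was the lowest of the 4, which was so for 42.7% of all detected genes. The 1 other member, Nrp1, a co-receptor for VEGF, was level (9.11 and 9.10). Of the 41, 31 were above the detection level on the untreated array and 15 on the Er71-deficient one. Members such as Emcn and Esam reached it only with doxycycline, so they entered through the array where they were high. For such members the order of the other arrays, under that level, is uncertain.

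Fli1, an ETS factor of endothelium and blood, had the largest difference of any gene. Its log2 intensity was 5.39 on the Er71-deficient array, 9.64 on the untreated iER71 array, 9.73 in wild type and 11.33 with doxycycline, a 19-fold lower level than on the untreated array. Cdh5, the cadherin of endothelial junctions, was 5.08, 9.19, 9.34 and 11.26 on the same arrays and 17.3-fold lower. For both genes the untreated and wild-type arrays lay within 0.2 of each other, while the Er71-deficient array was under the detection level.

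Receptors of endothelium were also lowest on the Er71-deficient array and highest with doxycycline. Tek was 4.62 on the Er71-deficient array, 7.99 untreated, 8.84 in wild type and 10.72 with doxycycline, a 10.3-fold difference in the pair. Ramp2, the partner of Calcrl in the adrenomedullin receptor, was 5.0, 8.30, 8.40 and 9.83 (9.80-fold). Calcrl, whose sequence before the start is printed above, was 5.22, 8.31, 8.51 and 9.21 (8.49-fold). Flt1, another VEGF receptor gene, kept a signal above the detection level without Er71, at 6.92 against 8.69 untreated, 8.14 in wild type and 10.07 with doxycycline (3.41-fold). So the receptors for angiopoietin and adrenomedullin were under the detection level on the Er71-deficient array, and Flt1 and Kdr were not.

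The remaining endothelial genes past 2-fold included surface and junction proteins and a transcription factor. Lower were the tetraspanin Tspan18 (7.65-fold), the adhesion molecules Pecam1 (3.30-fold) and Cd34 (2.59-fold), the SoxF factor Sox7 (2.58-fold) and the secreted Egfl7 (2.39-fold). Myct1 counted among the 14 as well, but it was under the detection level on both arrays of the pair (4.32 and 5.49) and was detected only with doxycycline (8.27), so no fold is given. Pecam1 was at 5.36 without Er71 and 7.08 on the untreated array, but at 8.56 in wild type and 8.73 with doxycycline. The untreated iER71 array thus lay 1.48 below wild type for Pecam1, the 1 gene of the endothelial list that was 2-fold lower there. Members short of 2-fold included the sphingosine-1-phosphate receptor S1pr1 (-0.95 on the log2 scale), Cd93 (-0.95), Sox18 (-0.83), the angiopoietin co-receptor Tie1 (-0.78) and Sox17 (-0.59). Emcn, Esam, Mmrn2, Robo4 and Vwf differed by between -0.44 and -0.12, and on the Er71-deficient and untreated arrays these 5 were near or under the detection level.

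Among ETS factors, 5 of 15 detected genes were at least 2-fold lower on the Er71-deficient array, against 1.19% of all detected genes, and none was higher. After Fli1 came Elk3 (4.14-fold), Erg (4.02-fold), Ets2 (2.54-fold) and Etv2 itself. Elk3, an ETS factor of the ternary complex group, was 6.26 without Er71, 8.31 untreated, 8.30 in wild type and 9.96 with doxycycline. Erg, a regulator of endothelial genes, was 5.52, 7.53, 8.15 and 8.64. Ets1 (-0.72) and Etv6 (-0.69) were lower by less than 2-fold. The other 8 members lay within 0.21 of the untreated array, among them the widely expressed Gabpa (9.97 and 9.98), so the list's median was only -0.13. With the detection level at the 75th percentile it was -0.72. That level acts on the brightest of the 4 arrays and leaves fewer members. Genes bright on a reference or doxycycline array pass it more easily, so the larger value is no firmer. Etv5, a target of FGF signalling, was close on the Er71-deficient and untreated arrays (9.18 and 9.32) and lower in wild type (8.39) and with doxycycline (7.07).

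Blood and hemogenic genes followed in part. Of 20 detected members 5 were at least 2-fold lower, against 1.19% of all detected genes, and none was higher. The median was -0.35, and -1.49 with the detection level set at the 75th percentile. The second value covers only the members bright enough on some array to stay, so it does not describe the whole list. Besides Fli1 these were Kit (3.50-fold), the receptor for stem cell factor, the LIM-domain factor Lmo2 (2.81-fold), the homeobox factor Hhex (2.81-fold) and Myb (2.69-fold), a factor of definitive blood progenitors. Lmo2 was 7.24 on the Er71-deficient array, 8.73 untreated, 8.46 in wild type and 8.93 with doxycycline. Kit was 5.79, 7.60, 7.65 and 8.88, and under the detection level only on the first. With an offset of 32 on the linear scale the difference of Myb was -0.92, short of 2-fold. Tal1 and Runx1, which head the hemogenic program, were not past 2-fold: Tal1 was 7.07 against 7.42 (-0.35), and Runx1 was 7.42 against 7.24 (0.18).

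The choice of reference mattered for the embryonic globins. Hbb-y was 5.29 on the Er71-deficient array and 5.63 on the untreated iER71 array, both under the detection level, but 8.71 in wild type. Against the untreated array the difference was -0.34, and against wild type it was -3.43. Hba-x was 6.56, 6.90 and 7.61 on these arrays. The globin difference was therefore seen against wild type and not against the untreated inducible line, whereas Fli1, Cdh5 and Calcrl gave nearly the same value against either (-4.25 and -4.34, -4.11 and -4.26, -3.09 and -3.29). Both comparisons use the same Er71-deficient array.

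**Figure D2:**
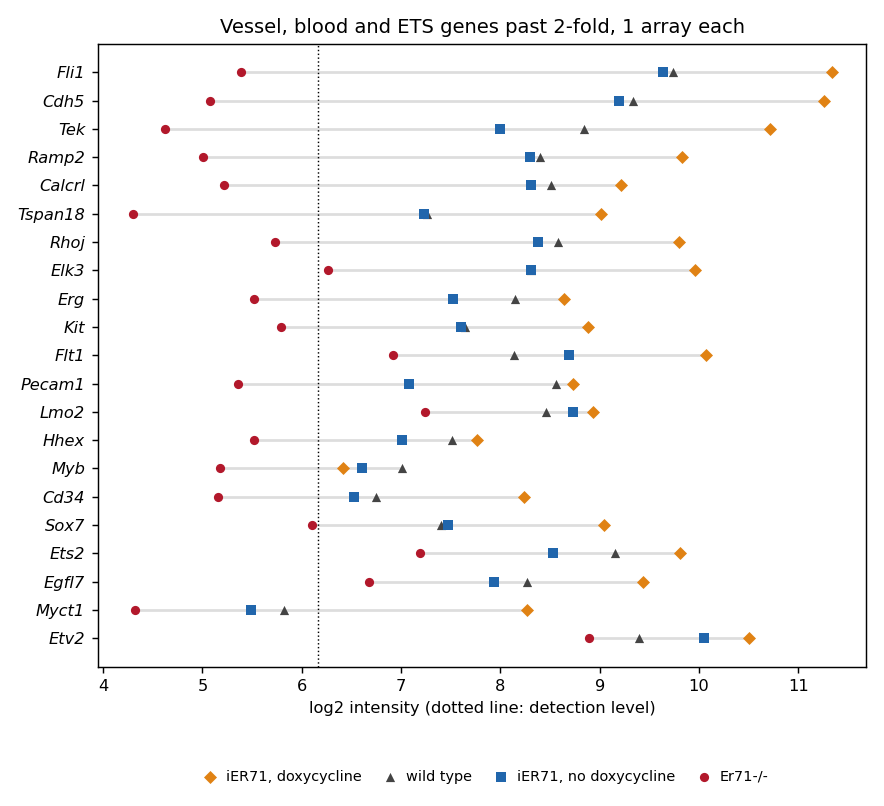
Log2 intensity (x) of the 21 genes of the endothelial, ETS and blood lists past 2-fold, with 1 point for each of the 4 arrays. The Er71-deficient array is the lowest for all 21, and the doxycycline array is the highest for 20, with Myb as the exception.

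The 21 genes in the plot of vessel, blood and ETS genes were chosen by their difference in this pair, so the low place of the Er71-deficient array follows from the choice. The other arrays entered through the detection level, which the brightest of the 4 had to reach; Myct1 reached it with doxycycline alone, so its high place there follows from the choice too. Of the 21, 14 had untreated and wild-type levels within 0.5 of each other, and 15 lay under the detection level on the Er71-deficient array.

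Other genes with large differences on the lower side were not in these lists. The largest were the sialyltransferase St8sia1 (16.9-fold), the matrix link protein gene Hapln1 (8.11-fold), Car8 (7.75-fold), the ligand Tgfb2 (6.81-fold), Prkar2b (5.97-fold), a regulatory subunit of protein kinase A, the guidance cue Sema3a (5.68-fold), Exoc3l (5.38-fold), the G protein gamma subunit Gngt2 (5.21-fold) and the leukocyte actin-bundling gene Lcp1 (5.19-fold). A second, dimmer probe set for St8sia1 differed by only -0.78. Prkar2b was 6.36 without Er71, 8.94 untreated and 9.93 on each of the other 2 arrays. Hapln1 was 4.01, 7.03, 8.39 and 7.68.

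For Tgfb2 the untreated array stood above the other 3. Tgfb2 was 8.80 on the untreated iER71 array, against 6.03 without Er71, 6.83 in wild type and 6.47 with doxycycline. Its difference from wild type was -0.80, against -2.77 from the untreated array. Sema3a was 8.61 untreated, against 6.10, 7.50 and 7.35, so here the untreated array stood above the other 3 by 1.11 and the Er71-deficient array below them by 1.25.

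In the innate immune and leukocyte list 3 of 14 detected genes were at least 2-fold lower, against 1.19% of all detected genes, and none was higher, with a median of -0.65. They were Lcp1, the immune GTPase gene Gimap4 and the immunoproteasome subunit Psmb8 (2.40-fold). Of the 14, 9 were above the detection level on the untreated array and 6 on the Er71-deficient one. The list's median thus rests in part on levels where a fold is uncertain. Gimap4 was under the detection level on both arrays of the pair (3.83 and 5.58) and was detected only with doxycycline (7.98); with an offset of 32 its difference was -0.79, short of 2-fold. Lcp1 was 5.20 without Er71, 7.58 untreated, 7.12 in wild type and 10.05 with doxycycline. Psmb8 had another order: it was 8.37 on the untreated array and between 6.96 and 7.11 on the other 3.

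Cardiac genes lay on the higher side. Past 2-fold, 3 of the 17 detected members were higher on the Er71-deficient array than on the untreated iER71 array, against 0.486% of all genes, and none was lower by that size. The median difference was 0.32, and 14 of the 17 differences were above 0 (82.4%, against 36.3% of all detected genes). Myl7, the atrial myosin light chain, was 8.81 without Er71, 7.0 untreated, 6.70 in wild type and 5.01 with doxycycline (3.50-fold in the pair). Hand1, a factor of lateral and cardiac mesoderm, was 8.63, 7.33, 8.33 and 6.61 (2.46-fold), and Tbx20, a cardiac T-box factor, was 8.22, 7.15, 7.81 and 5.86 (2.10-fold). For Myl7 the Er71-deficient array stood apart from the other 3, whereas for Hand1 and Tbx20 it lay within 0.41 of wild type. Hand1 was at least 2-fold lower on both iER71 arrays than on both others, so line and Er71 cannot be told apart for it. With an offset of 32 the difference of Tbx20 in the pair was 0.92, short of 2-fold.

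Mesp1, the factor of earliest cardiac mesoderm, was 0.89 higher than on the untreated array and 1.36 higher than in wild type. Tnnc1 was 0.78 higher, and Gata4 0.35. The 2 cardiac members below the untreated array were Nkx2-5 (-0.23) and Mef2c (-0.21). Against wild type 12 of the 17 were above 0 and 4 below, Tnnt2 the farthest (-0.74). Of all 8843 detected genes 2710 were above 0 and 4679 below in that comparison. In the smooth muscle and pericyte list none of 9 passed 2-fold and none was below the untreated array, against 43.8% of all detected genes. Its median was 0.30, and the largest differences were those of the calponin gene Cnn1 (0.97), Rgs5 (0.84) and Tagln (0.78). Acta2 was equal on both arrays of the pair (7.09). Against wild type it was at -1.26, the 1 member of this list below 0 there, with 8 above.

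Primitive streak genes did not lie to one side, with a median of 0 over 15 genes. Cer1, a secreted antagonist of Nodal, BMP and Wnt, was the 1 member past 2-fold (6.67%, against 1.19% of all detected genes). It was 2.87-fold lower without Er71, at 7.21 on the untreated array and between 5.68 and 5.84 on the other 3. Lhx1, a LIM homeobox factor, was 0.77 higher than on the untreated array, but 2.02 higher than in wild type, since the untreated array (8.12) was above wild type (6.87). In the paraxial and lateral mesoderm list the forkhead factor Foxf1 (2.43-fold higher) was the 1 of 13 past 2-fold (7.69%, against 0.486% of all detected genes). Foxf1 was under the detection level on the untreated array (5.98), and with an offset of 32 its difference was 0.96. Pdgfra, the receptor of paraxial and cardiac mesoderm, was just short of 2-fold at 0.97, against 1.33 from wild type.

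In the signalling, matrix, adhesion and Hox lists at most 2 genes each passed 2-fold, with medians between -0.16 and 0.00. The shares past 2-fold each way were 3.23% for Wnt, 2.86% for BMP, Nodal and TGF-beta, and 4.35% for FGF, VEGF and MAPK. On the lower side they were 4% for matrix and 9.52% for adhesion. All these lie above the shares over all detected genes, 0.486% higher and 1.19% lower, but each rests on 1 or 2 genes. Of 31 Wnt pathway genes, Dact1, an intracellular modulator of Wnt signalling, was 2.82-fold higher and Lgr5, an R-spondin receptor, was 2.23-fold lower (-0.97, short of 2-fold, with an offset of 32); the median was 0.00. Of 35 genes of the BMP, Nodal and TGF-beta list, Bmp5 was 2.07-fold higher (0.996 with that offset) and Tgfb2 lower, and the median was 0. Fgfr2 (2.22-fold higher) and Flt1 (lower) were the members past 2-fold among 23 of FGF, VEGF and MAPK, with a median of -0.11. Fgfr2 was under the detection level on the untreated array (5.80), and its difference was 0.83 with that offset. None of 16 Notch pathway genes passed 2-fold (median -0.02). In the matrix list Hapln1 was the 1 of 25 past it (median -0.05), and in the adhesion list Cdh5 and the epithelial cadherin Cdh1 (2.08-fold lower, but -0.92 with that offset) were 2 of 21 (median -0.16). None of 15 Hox, Cdx and Meis genes passed (median -0.07).

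**Figure D3:**
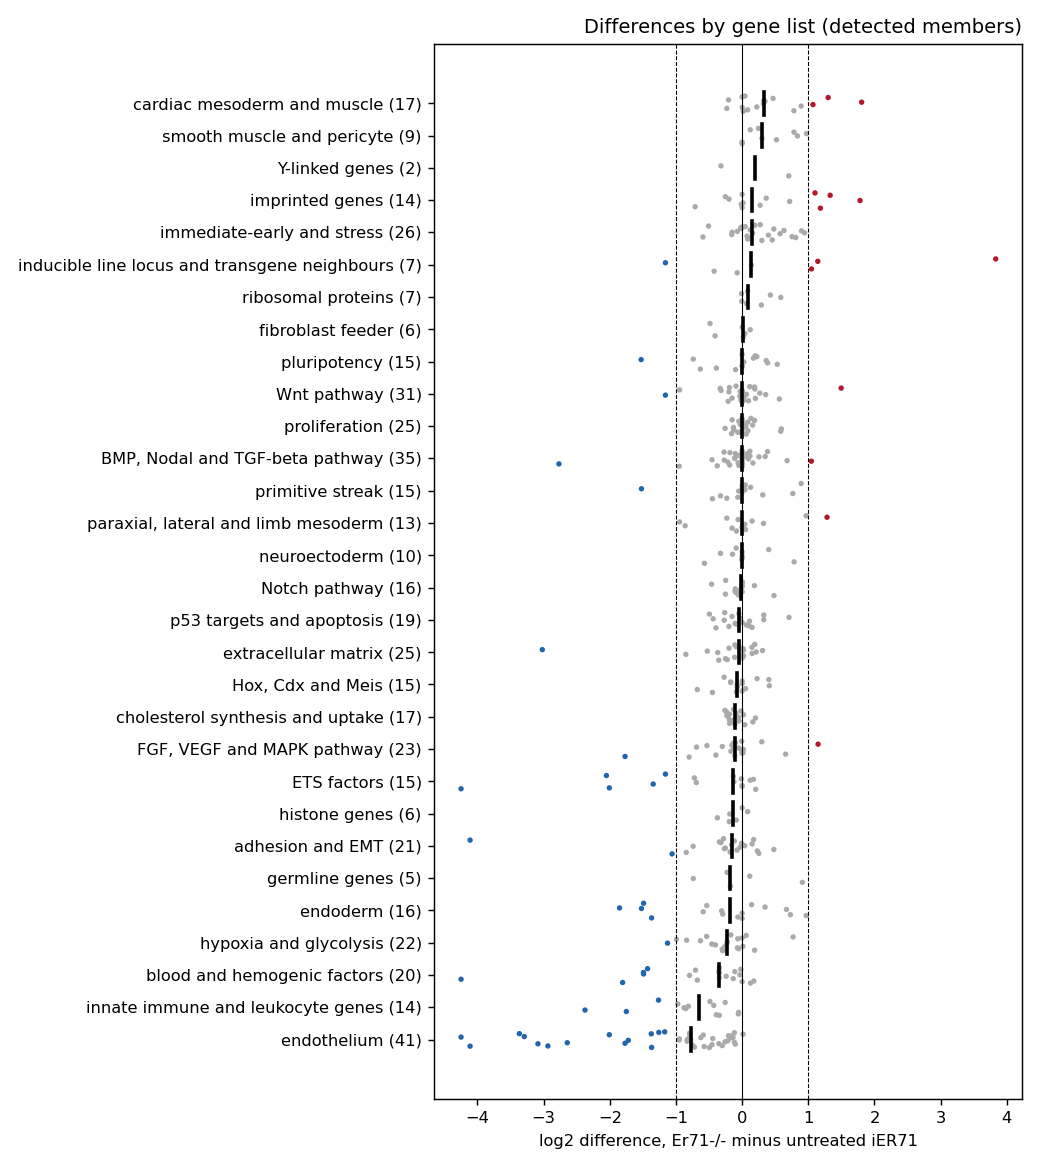
Log2 difference, Er71-deficient minus untreated iER71 (x), for each detected member of the 30 gene lists (rows, with the number of detected members), with black bars at the list medians and dashed lines at 2-fold. The endothelial list has the lowest median (-0.78) and the cardiac list the highest (0.32).

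Markers of other cells that the gate could hold were also examined. Of 15 pluripotency genes Dppa4 was the 1 past 2-fold, on the lower side (6.67%, against 1.19% of all detected genes). It was under the detection level on both arrays of the pair (3.84 and 5.37) and was detected only with doxycycline (7.48). Nanog was 0.53 higher than on the untreated array, and the list's median was 0.00. In the endoderm list 4 of 16 were lower, against 1.19% of all detected genes, namely the trypsin inhibitor gene Spink1 (3.61-fold), Cer1, Hhex and Sox7, of which Hhex and Sox7 are also in the blood or endothelial list; its median was -0.18. None passed 2-fold among 10 neuroectoderm genes (median 0.00) and 6 fibroblast feeder genes (median 0.01). The summed intensity of the feeder list was 800 on the Er71-deficient array and between 903 and 989 on the other 3. That of the endoderm list was between 2521 and 3325 on the 4 arrays, and that of the neuroectoderm list between 1261 and 1709. The pluripotency sum was 16088.5 on the Er71-deficient array, 13108.2 untreated, 10871.9 in wild type and 7044.7 with doxycycline. The Er71-deficient array was the highest of the 4 for 53.3% of pluripotency genes, against 28.5% of all detected genes. Of the 16 feeder markers 10 were not detected on any array. The part of such cells in the differences was not tested.

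Lists of cell state gave small differences. In the hypoxia and glycolysis list Bnip3 was the 1 of 22 past 2-fold (4.55%, against 1.19% of all detected genes), with Egln3 just short of it. Bnip3 was 2.18-fold lower, but its difference was -0.96 with an offset of 32. The list's median was -0.23, and against wild type it was -0.62. Slightly higher were immediate-early and stress genes, with a median of 0.14 over 26 and none past 2-fold; Ddit3 (0.94), Klf6 (0.90) and Fos (0.81) were the largest. No member passed 2-fold among 25 proliferation genes (median 0), 19 p53 target and apoptosis genes (-0.05), 17 cholesterol genes (-0.11), 7 ribosomal protein genes (0.08), 6 histone genes (-0.14) or 5 germline genes (-0.18). Both detected Y-linked genes were seen on both arrays of the pair or close to the detection level: Eif2s3y was 8.79 and 8.09, and Sry 6.02 and 6.34.

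Several of the genes highest above the untreated array were low in the inducible line. Hprt, which encodes the purine salvage enzyme often used as a docking locus for inducible genes in mouse ES cells, had the largest difference on this side, 14.2-fold. It was 10.65 on the Er71-deficient array and 10.55 in wild type, but 6.81 on the untreated iER71 array and 9.43 with doxycycline. In the RefSeq table the next 2 protein-coding genes after Hprt are Plac1, a placental gene, and Fam122b. Plac1 was 7.49 without Er71 and 8.64 in wild type, against 6.35 untreated and 6.24 with doxycycline. Fam122b was 7.97 and 8.04, against 6.92 and 6.68. On the other side, the neighbouring Phf6 was 8.34 without Er71 and between 8.76 and 8.91 on the other 3, and Mospd1, 4 genes after Hprt, was between 9.36 and 9.64 on all 4 arrays. Hprt, Plac1 and Fam122b were thus at least 2-fold lower on both iER71 arrays than on both others. Mospd1 was also lower on both, but by under 0.3, and Phf6 was not. Where the inducible gene sits in the iER71 line is not given in the sources used here, and its part in these values was not tested.

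Other genes had the same order. Counting genes in which both iER71 arrays were at least 2-fold below both other arrays gave 12, and at least 2-fold above gave 7; this count was added after the data were seen. Among the 12 were the peroxiredoxin gene Prdx2 (11.10 without Er71, 11.28 in wild type, 8.85 untreated, 7.99 with doxycycline), Scoc (6.64, 6.85, 4.75 and 4.61), Spin2c, the carbonic anhydrase gene Car4 and Nexn, which encodes an actin-binding protein of muscle. Hand1 of the cardiac list and Magel2 of the imprinted list were also among the 12. In the pair Prdx2 was 4.77-fold, Scoc 3.69-fold, Car4 3.34-fold, Nexn 3.20-fold and Spin2c 3.15-fold higher without Er71, and against wild type all 5 differed by between -0.21 and 0.54. Among the 7 were Adam23 (7.08, 7.63, 9.13 and 8.99), Exoc3l, the DNA sensor gene Aim2 (1.03 below wild type and 2.23 below the untreated array without Er71) and Cdh1. Since these genes were chosen on all 4 arrays, the likeness of both iER71 arrays follows from the choice.

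Imprinted genes had 4 of 14 detected members at least 2-fold higher on the Er71-deficient array, against 0.486% of all detected genes, and none lower, with a median of 0.14. With an offset of 32 on the linear scale 2 of the 4 stayed past 2-fold, and with no detection filter the median was 0.00693. H19, a maternally expressed non-coding RNA, was 10.30 without Er71, 8.51 untreated, 10.78 in wild type and 9.58 with doxycycline (3.44-fold in the pair). Airn, the non-coding RNA at Igf2r, was 7.08, 5.90, 7.47 and 6.18 (2.27-fold), and Magel2 was 8.06, 6.96, 8.67 and 5.78 (2.15-fold). For these 3 the Er71-deficient array was the nearer to wild type, and the untreated array was low. Phlda2, a maternally expressed regulator of placental growth, was 10.99, 9.66, 9.80 and 6.60 (2.52-fold), so here the Er71-deficient array stood above the other 3. Igf2, the neighbour of H19, differed the other way, at 9.15 against 9.86 untreated and 10.37 in wild type (-0.71 and -1.22).

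**Figure D4:**
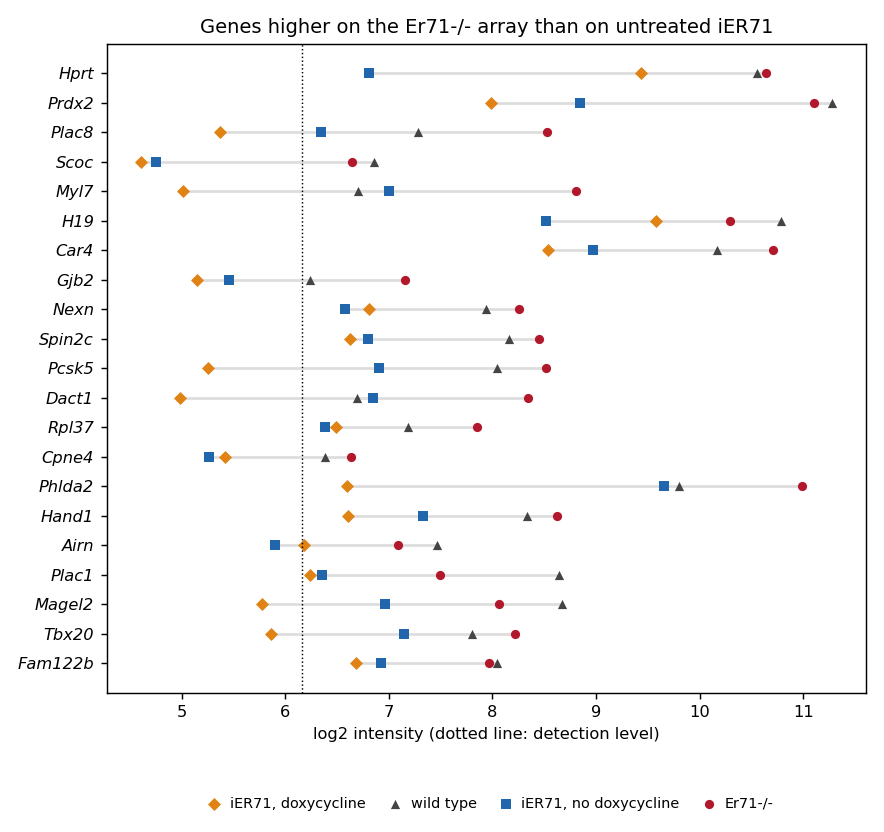
Log2 intensity (x) on each of the 4 arrays of the 15 genes with the largest differences on the higher side, followed by the other imprinted, cardiac and Hprt-neighbour genes past 2-fold. Wild type lies near the Er71-deficient array for Hprt, Prdx2 and Scoc, and near the untreated iER71 array for Myl7, Dact1 and Phlda2.

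Among the 15 largest on the higher side were also Plac8 (4.54-fold), the gap junction gene Gjb2 (3.24-fold), the proprotein convertase Pcsk5 (3.06-fold), Rpl37 (2.77-fold, with near-identical copies in the genome, so uncertain) and Cpne4 (2.59-fold). Plac8 was 8.52 without Er71, 6.34 untreated, 7.28 in wild type and 5.36 with doxycycline, highest on the Er71-deficient array by 1.24. Pcsk5 was 8.51, 6.90, 8.04 and 5.25. For Plac8 wild type lay between the arrays of the pair, and for Pcsk5 it was close to the Er71-deficient array. With an offset of 32 the difference of Cpne4 was 0.90, short of 2-fold.

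To see which array the differences sat on, each array was set against the other 3. The Er71-deficient array was at least 2-fold below each of the other 3 for 69 genes and above each for 6. The untreated iER71 array stood apart for far fewer, 7 above and 3 below, and the wild-type array for 8 above and 3 below. The doxycycline array stood apart for 169 above and 69 below. Of the 69, the farthest were Fli1, Cdh5, Tek, Ramp2, St8sia1, Calcrl, Hapln1 and Car8, by between 2.95 and 4.25. The 6 were Myl7 (1.81), Dact1 (1.5), Plac8 (1.24), Phlda2 (1.19), Papolb (1.13) and Trim36 (1.12). The 7 above on the untreated array were Tgfb2 (1.96), Cer1 (1.37), Cdh20 (1.32), the hormone precursor gene Trh (1.29), Psmb8 (1.26), the guanylate-binding gene Gbp2 (1.17) and Sema3a (1.11), and those below were Hprt (2.62), H19 (1.07) and an unnamed gene model.

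**Figure D5:**
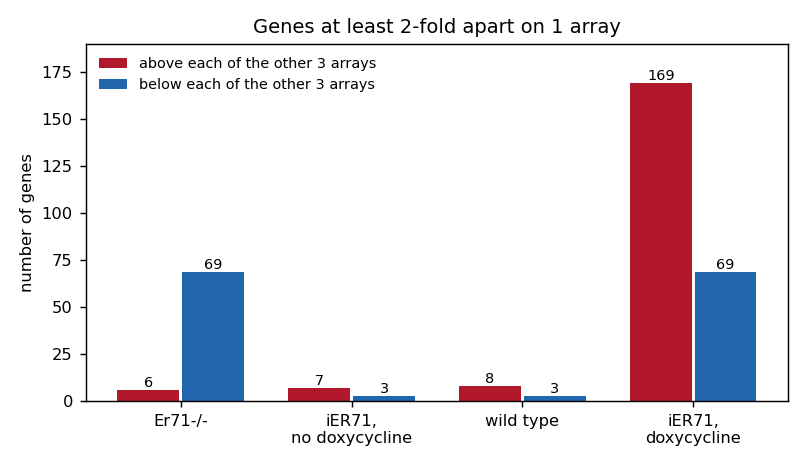
Number of detected genes (y) whose level on 1 array was at least 2-fold above (red) or below (blue) that on each of the other 3. The Er71-deficient array has 69 below and 6 above, while the untreated iER71 and wild-type arrays have at most 8 in either direction.

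Set side by side with the other reference, the counts were of similar size. Against wild type 140 genes were at least 2-fold lower on the Er71-deficient array (1.58%) and 38 higher (0.43%), with 24 (0.271%) and 2 (0.0226%) at 4-fold. The untreated iER71 array itself had 49 genes 2-fold lower than wild type (0.554%) and 39 higher (0.441%), with 7 (0.0792%) and 1 (0.0113%) at 4-fold, so the reference arrays also differed from each other. The median of the endothelial list was -0.78 against the untreated array, -0.66 against wild type and 0.00 between the references. For blood it was -0.35, -0.57 and -0.11, for cardiac genes 0.32, 0.18 and -0.01, and for imprinted genes 0.14, -0.09 and -0.25. These comparisons share arrays and are not independent of each other.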

How the data were processed

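RNA of Flk-1-positive cells was amplified and hybridised to 4 Affymetrix arrays, 1 per group. The authors deposited 1 linear intensity for each of 23332 probe sets and array; per the submitters' processing notes, Affymetrix Expression Console, RMA and the build mm8 were used, with no versions or order. RMA usually gives log2 values, so log2 of the deposited intensity was taken here. Median intensities were 71.3 on the Er71-deficient, 71.3 on the untreated, 71.7 on the wild-type and 72.3 on the doxycycline array. Values were exactly equal on a pair of arrays for 15.1% to 20.0% of probe sets, which draws medians towards 0. No detection call came with them.

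Symbols came from the platform annotation: 14996 probe sets had 1, 1019 several and 7317 none. Where a gene had more than 1 probe set (135 genes), only the brightest counted. Calls are differences of at least 1 on the log2 scale; 2 on that scale is 4-fold. Python 3.11.15 and, for the alternatives, limma 3.58.1 in R 4.3.3 were used. Named genes are Etv2, Kdr, the 15 largest differences each way, the 8 farthest each way where 1 array of the pair stood apart, up to 5 members per list, and up to 3 more per list by their difference from wild type, leaving out gene models and receptors of smell; not all are named. Members and lists were chosen with earlier results of these data known, and genes outside the rule (list members short of 2-fold or level, genes at the edge of the call, neighbours of Hprt, genes that follow the line) were named after their values were seen. The mm8 build differs from that of the promoter table, so no probe positions were used.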

Additional observations from a re-analysis of the deposited data

Results flagged for a closer look

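Probe sets with no gene symbol took no part in the comparison. Of these, 3387 reached the detection level, with 261 past 2-fold on the higher side in the Er71-deficient minus untreated comparison and 33 on the lower side. That is 7.71% higher and 0.974% lower, where probe sets with 1 symbol had 0.505% higher and 1.21% lower, so the balance was turned round. Against wild type 208 were higher and 57 lower on the Er71-deficient array, and between the references 79 were higher and 160 lower on the untreated array than in wild type. What these probe sets measure is not given in the sources used here.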

How the results depend on the processing

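No paired analysis was possible because each group has 1 array. Of 160 genes checked, 63 were past 2-fold. None of the 63 changed direction under an alternative in which it could be checked. For genes short of 2-fold a small change of sign was not looked for. With the filter at the 75th percentile 108 of the 160 could be checked. An offset of 32 on the linear scale took 19 under 2-fold (Airn, Bmp5, Bnip3, Cdh1, Cdh20, Cpne4, Dppa4, Fam122b, Fgfr2, Foxf1, Gbp2, Gimap4, Lgr5, Magel2, Myb, Papolb, Plac1, Tbx20 and Trim36). Egln3 passed 2-fold after quantile normalization or cyclic loess, and Laptm5 (-1.01) after the first. The median of all genes shifted by at most 0.02 under any alternative. The 43 higher genes became 75 with no detection filter, 25 with the filter at the 75th percentile, 17 with the offset, 162 at 1.5-fold, 3 at 4-fold and 317 over all probe sets, named or not. The 105 lower genes became 53 with the offset, 291 at 1.5-fold and 24 at 4-fold. With the stricter filter the medians were -1.06 for endothelium, -0.72 for ETS factors, -1.49 for blood and 0.32 for imprinted genes. These cover fewer members, kept by their brightest array, so they are not firmer than the main values. For germline genes the value was 0.91, of the other sign, but it equals the largest single difference of that list. It is thus the value of 1 gene and not a turn of the list. The endothelial median was -0.55 with the offset. With no filter the cardiac median was 0.22 and the imprinted one 0.00693. Leaving out genes equal on both arrays, an alternative added after seeing the data, gave -0.69 for ETS factors and 0.27 for imprinted genes. With the offset 2 imprinted genes stayed past 2-fold. Median centring and the mean of probe sets moved none of these counts by over 1.5 times. The cause was not tested; the number of arrays and unknown background limit every value.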

Other observations

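The genes below were singled out after their values were seen. The immunoproteasome subunit genes Psmb8, Psmb9 and Psmb10 were brightest on the untreated iER71 array, at 8.37, 7.76 and 8.50. On the Er71-deficient array they were 7.11, 6.95 and 7.25, and in wild type 6.96, 6.03 and 7.50. The guanylate-binding genes Gbp2 and Gbp3 were 7.56 and 6.55 on the untreated array and 6.39 and 5.42 on the Er71-deficient one, but with doxycycline Gbp3 was at 6.92. Irf1, an interferon-responsive factor, differed by -0.06 in the pair, and B2m was 10.81 and 11.15.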
